A study of Mus musculus with 6 samples.

Results

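Glial fibrillary acidic protein (Gfap) and 9 further genes that are known to rise in reactive astrocytes were followed in olfactory bulbs of mice with a plugged nostril. The 10 genes are Gfap, Vim, Serpina3n, Ggta1, Aspg, Gbp2, Emp1, Osmr, Cd44 and Timp1, out of 22095 genes in the table. They were matched by symbol to their Ensembl identifiers, and all 10 were found. The genes were chosen by symbol from known reactive astrocyte genes and selected on their CPM in left against right libraries, with earlier left-right results known, so their left-right values stand as a description and carry no p-value.

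Messenger RNA was sequenced from the bulbs of 3 ICR mice, an outbred stock. The left naris had been closed with a silica gel plug at postnatal day 30, and the bulbs were taken 60 days later from mice perfused with saline. The mice carry the numbers 1037, 1038 and 1039. Both bulbs of every mouse were sequenced, the left from the plugged and the right from the open side, so the groups are left, plugged (3 libraries), and right, open (3 libraries). All mice were plugged, so the left-right difference of an unplugged mouse is not known from them, and any effect of the plug on the open side enters each left-right difference.

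Astrocytes are the glia that supply neurons, buffer transmitter and potassium and line vessels. When tissue is injured, inflamed or loses input they become reactive: they assemble more intermediate filaments of Gfap and vimentin, and they switch on surface receptors, protease inhibitors and enzymes. Cytokines of the interleukin-6 family act through receptors such as Osmr and the transcription factor Stat3 in this response, and Gfap is a known target of Stat3. In the rodent bulb, astrocytes surround the glomeruli, where the axons of the nose end.

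The promoters of 3 genes are shown: Gfap, the member with the highest level per length, Emp1, the other member with a match to the Stat binding motif, and Cd44, the member with the largest left-right difference. Each run holds 250 bases before and 20 bases from the annotated RefSeq start (build GRCm38.p6), 5′ to 3′ on the gene's strand. Capitals mark matches to TTCNNNGAA, the letters of the Stat motif, which read the same on both strands.
Gfap, chr11:102897181-102897450, minus strand: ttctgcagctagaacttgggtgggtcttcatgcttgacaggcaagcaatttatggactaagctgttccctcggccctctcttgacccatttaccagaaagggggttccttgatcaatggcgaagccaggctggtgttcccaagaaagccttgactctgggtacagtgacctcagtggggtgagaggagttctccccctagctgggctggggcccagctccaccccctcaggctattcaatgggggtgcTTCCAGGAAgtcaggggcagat
Emp1, chr6:135362681-135362950, plus strand: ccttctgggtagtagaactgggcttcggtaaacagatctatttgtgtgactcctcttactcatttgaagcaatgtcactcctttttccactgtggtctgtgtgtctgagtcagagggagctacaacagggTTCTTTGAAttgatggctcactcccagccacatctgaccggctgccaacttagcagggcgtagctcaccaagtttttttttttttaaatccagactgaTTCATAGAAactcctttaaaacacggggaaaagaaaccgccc
Cd44, chr2:102901646-102901915, minus strand: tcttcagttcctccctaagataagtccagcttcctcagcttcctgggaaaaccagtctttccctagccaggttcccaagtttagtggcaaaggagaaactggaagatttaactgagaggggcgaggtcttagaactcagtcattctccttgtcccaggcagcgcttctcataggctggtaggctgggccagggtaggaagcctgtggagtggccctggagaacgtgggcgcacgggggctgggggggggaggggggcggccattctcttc
In Gfap the single match begins 2 bases before the start, and in Emp1 the matches begin 120 and 22 bases before the start shown. A further annotated start of Emp1 had 0 matches to either motif searched in its window. Of the 10 members 2 held the motif in such a window, and of all 27025 genes with a window 8.74% did. The letters TGANTCA, a loose form of the AP-1 motif with any base at N, also read the same on both strands. They were present in 3 members (Gbp2, Emp1 and Osmr) and in 8.35% of all genes. The match in Osmr reads TGATTCA. In Emp1, 1 of the Stat matches overlaps such a match, which also reads TGATTCA. Such matches describe the letters only.

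The libraries held 14571453 to 15590938 counts, given below as CPM, the count scaled to a common library total. A count of 0 allows a level of up to 3 counts, which is 0.192 to 0.206 CPM. Such bounds, and the intervals given for counts, take in counting error alone. The library labelled left 1038 went against its label. Its 8 markers of bulb neurons summed to 119 CPM, against 2618 to 2736 CPM in the other left libraries and 2659 to 2934 CPM in the right ones. Its 6 markers of cerebellar neurons summed to 5104 CPM, against 30.1 to 31.3 CPM in the other left libraries and 25.1 to 27.3 CPM in the right ones. It is therefore given apart, and the groups compared are left 1037 and 1039 (n = 2) against right 1037, 1038 and 1039 (n = 3). In these, Th, the dopamine-synthesis enzyme known to fall when the nose is closed, stood at 49.0 and 39.0 CPM on the left and at 145, 164 and 132 CPM on the right.

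Gfap carried most of the reads of the group and was about 2-fold higher on the plugged side (ENSMUSG00000020932, chromosome 11, 102887336 to 102900912 on GRCm38, a protein-coding gene). Gfap reached 543 CPM (left 1037) and 578 CPM (left 1039), against 221, 248 and 297 CPM in right 1037, 1038 and 1039. The left libraries lay close together and above every right one, and the groups did not overlap. Left bulbs averaged 561 ± 24.6 CPM (SD, n = 2) and right bulbs 255 ± 38.2 CPM (SD, n = 3), which is 1.05 as log2 of left over right (SE 0.10). Within a mouse the left-to-right ratio was 2.45 in mouse 1037 and 1.95 in mouse 1039. The log2 value stayed between 0.97 and 1.17 when any 1 of the 5 libraries was left out.

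Vim, which encodes vimentin, the filament protein that assembles with Gfap, differed little between the sides (ENSMUSG00000026728, chromosome 2, 13573927 to 13582826). It had 105 and 88.0 CPM in left 1037 and 1039, against 79.7, 81.5 and 78.7 CPM in the right bulbs. The groups did not overlap, but the lowest left library stood 1.08-fold above the highest right one, and the left libraries differed 1.19-fold from each other. The log2 fold change was 0.19 (SE 0.08), with 0.06 without left 1037 and 0.32 without left 1039. Gfap counts per Vim count were 5.18 and 6.57 on the left and 2.78, 3.04 and 3.77 on the right, so the filament genes were not raised in proportion. Of 5 other genes tied to these filaments (Nes, Synm, Des, Plec and Lmna), edgeR's quasi-likelihood test called 0, as did DESeq2 and limma-voom. Since edgeR called 9.62% of all genes tested, nothing is read from a count of 0 among so few. In edgeR 1 of the 5 had an unadjusted p under 0.05. That gene was Nes, the filament protein nestin of immature glia, with a log2 fold change of -0.37 (SE 0.13, adjusted p = 0.112). In the fit blocked by mouse Nes passed (adjusted p = 0.0440). Synm, a partner of vimentin, had -0.19 (SE 0.10, adjusted p = 0.268).

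**Figure D1:**
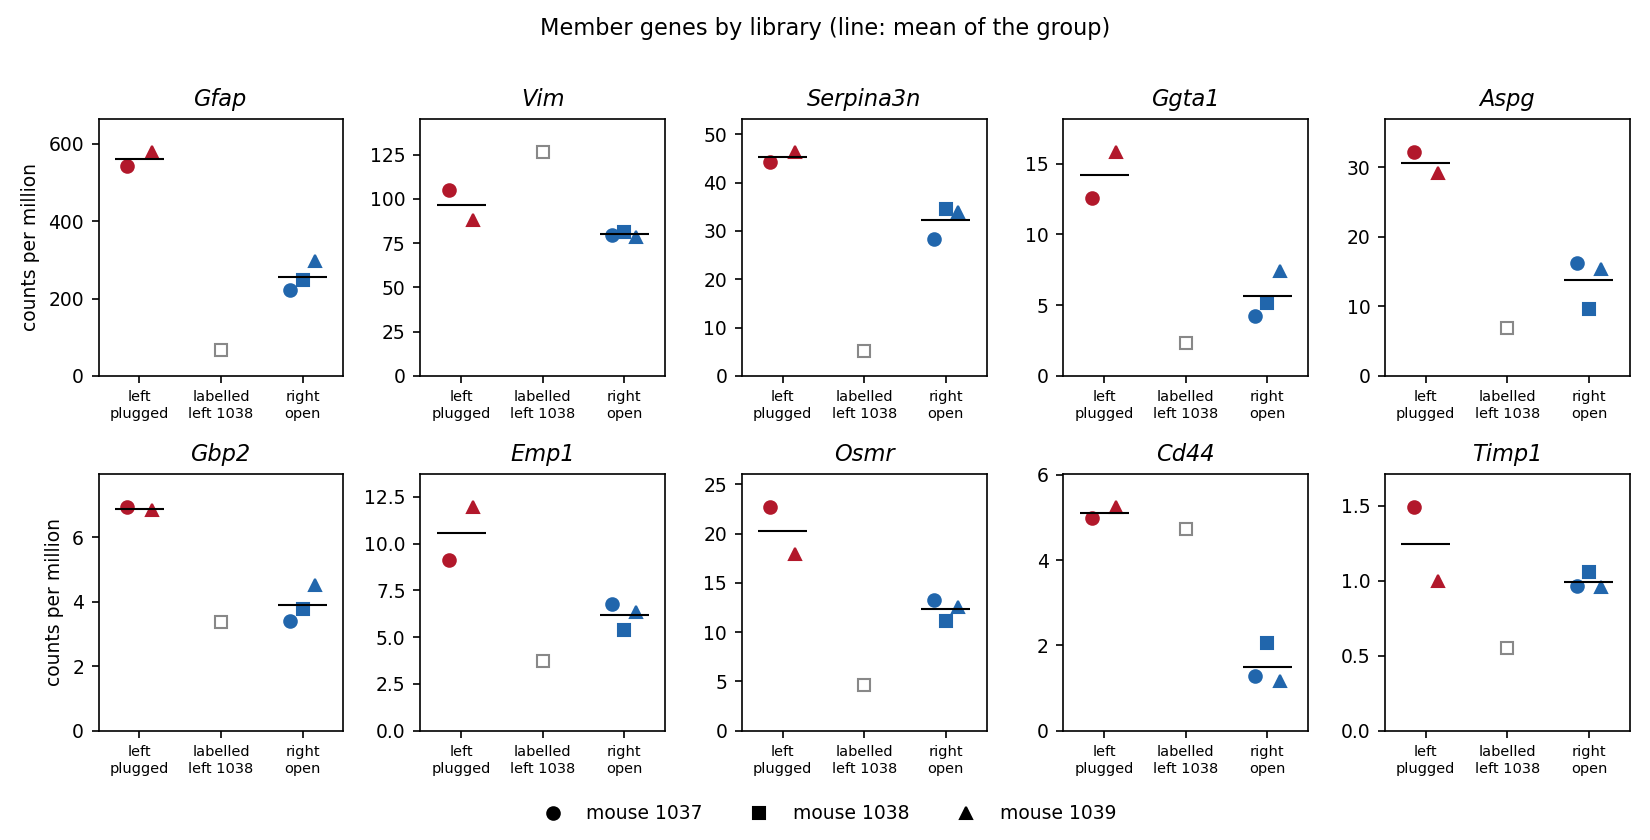
Level in CPM (vertical axes, from 0) of the 10 genes in each library, with the left plugged bulbs in red, the library labelled left 1038 as a grey open square and the right open bulbs in blue. Lines are group means over 2 left and 3 right libraries, and marker shapes give the mouse; for 9 of 10 genes, Timp1 being the exception, both left bulbs lie above all right bulbs.

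Both surface receptors of the group were higher on the plugged side. Cd44, the receptor for hyaluronan, showed the largest difference of the 10 genes (ENSMUSG00000005087, chromosome 2, 102811141 to 102901665). It had 4.99 and 5.24 CPM in left 1037 and 1039, against 1.28, 2.05 and 1.16 CPM in right 1037, 1038 and 1039. The left libraries agree within sampling noise (95% Poisson intervals of 3.94 to 6.24 and 4.15 to 6.54 CPM), and the lowest of them stood 2.43-fold above the highest right one. Left bulbs averaged 5.12 ± 0.18 CPM (SD, n = 2) and right bulbs 1.499 ± 0.48 CPM (SD, n = 3), a log2 fold change of 1.68 (SE 0.28), from 77 and 79 reads on the left and 17 to 31 on the right. Osmr, the receptor subunit for oncostatin M (ENSMUSG00000022146, chromosome 15, 6813577 to 6874969), had 22.7 and 17.9 CPM on the left and 13.3, 11.1 and 12.6 CPM on the right. The left libraries were spread over 1.27-fold and both stood above the right ones. Its log2 fold change was 0.64 (SE 0.14), with 0.46 without left 1037 and 0.81 without left 1039.

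The protease inhibitors of the group moved less. Serpina3n, a secreted inhibitor of serine proteases (ENSMUSG00000021091, chromosome 12, 104406729 to 104414329), had 44.25 and 46.27 CPM in left 1037 and 1039, against 28.35, 34.45 and 33.93 CPM in the right bulbs. The left libraries were nearly equal, above every right one, and the log2 fold change was 0.41 (SE 0.10). Of the stretches of 50 bases in its longest transcript, 6.90% also occur in transcripts of other genes of its cluster, among them Serpina3g, Serpina3c and Serpina3f, so its count is uncertain to that extent. Timp1, an inhibitor of metalloproteinases (ENSMUSG00000001131, chromosome X, 20870166 to 20874735), was the scarcest by reads, with 23 and 15 reads on the left and 15, 16 and 14 on the right. These are 1.49 and 0.996 CPM on the left and 0.962, 1.06 and 0.956 CPM on the right, and the groups overlap. Its log2 fold change was 0.24 (SE 0.37), and -0.08 without left 1037, so a difference was not detectable at this depth. Timp1 lies within the span of Syn1, on the opposite strand and with 0 shared exon bases. Syn1, a synaptic vesicle gene, had 5468 and 5171 reads on the left and 6552, 6518 and 6282 on the right. The sources used here do not say whether counting used the strand, so reads of unspliced Syn1 RNA could bear on Timp1. Gfap lies within the span of Gm26668, a lincRNA gene on the opposite strand, with 0 shared exon bases. Gbp2 shares 24 exon bases with Mir6381 on the opposite strand. Gm43761 overlaps Ggta1, Mir3073a and Mir3073b overlap Aspg, and Gm23731 overlaps Cd44, each with 0 shared exon bases. None of these other genes was counted here.

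Of the enzymes, Ggta1 was more than 2-fold and Aspg about 2-fold higher on the plugged side. Ggta1, a galactosyltransferase that makes the alpha-gal sugar epitope (ENSMUSG00000035778, chromosome 2, 35400179 to 35463231), had 12.6 and 15.8 CPM in left 1037 and 1039, against 4.23, 5.17 and 7.44 CPM in right 1037, 1038 and 1039. Mouse 1039 was the highest on both sides, and the groups did not overlap. The log2 fold change was 1.26 (SE 0.22), with left-to-right ratios of 2.97 in mouse 1037 and 2.12 in mouse 1039. Aspg, an asparaginase (ENSMUSG00000037686, chromosome 12, 112106679 to 112127559), had 32.1 and 29.1 CPM on the left and 16.2, 9.67 and 15.4 CPM on the right. Right 1038 was the lowest library, and the log2 fold change of 1.07 (SE 0.18) became 0.88 without it. With the mouse as a block it was 0.87 (SE 0.12). The left-to-right ratio of Aspg was 1.99 in mouse 1037 and 1.89 in mouse 1039.

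The remaining members are Gbp2, an interferon-induced GTPase, and Emp1, a membrane protein of cell contacts. Gbp2 (ENSMUSG00000028270, chromosome 3, 142620602 to 142638008) had 6.93 and 6.84 CPM on the left and 3.40, 3.78 and 4.51 CPM on the right. Its left libraries were almost the same and above every right one, with a log2 fold change of 0.74 (SE 0.19), and 2.07% of its stretches of 50 bases are shared with Gbp2b. Emp1 (ENSMUSG00000030208, chromosome 6, 135362545 to 135383173) had 9.13 and 11.9 CPM on the left and 6.80, 5.37 and 6.35 CPM on the right. Its groups did not overlap, and the log2 fold change of 0.69 (SE 0.18) was 0.87 without left 1037 and 0.49 without left 1039.

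All 10 members passed the filter on low counts and had a positive log2 fold change, with a median of 0.71, where the median over all 14412 genes tested was 0.005. In 9 of 10 members both left CPM lay above all right CPM, where 33.2% of all genes tested did so and 13.2% had both below. These CPM are scaled by the library total alone, unlike the log2 fold changes. By edgeR's test, at an adjusted p under 0.05, 8 of 10 members were called higher, where 3.16% of all genes were called higher (6.46% lower and 9.62% in either direction). The split of all calls was 456 higher and 931 lower, and 975 higher and 589 lower with scaling by total library size only. Because the members were chosen with this contrast in view, nothing is read from these counts. The same holds for which member calls held or ended in the fits below, which are given as description only. Gfap, Ggta1, Aspg and Cd44 were called in each of the 5 fits that left out 1 library. The count of members was 5 without left 1037, right 1037, right 1038 or right 1039, and 6, with Vim in place of other members, without left 1039. The call of Serpina3n ended without left 1037, left 1039, right 1037 or right 1039, that of Gbp2 without left 1037, left 1039, right 1037 or right 1038 and by DESeq2, that of Emp1 without left 1039, right 1037, right 1038 or right 1039, and that of Osmr without left 1037, right 1038 or right 1039. The lowest values in these fits were 0.33 for Serpina3n, 0.66 for Gbp2, 0.49 for Emp1 and 0.46 for Osmr. With the mouse as a block Gbp2 and Emp1 were not called, at 0.72 (SE 0.22) and 0.59 (SE 0.19).

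With the library labelled left 1038 among the left ones, 0 of 10 members were called, as was no gene of the table (1196 of 14209 at an unadjusted p under 0.05). The log2 fold change of Gfap was then 0.56 (SE 0.72), that of Serpina3n -0.09 (SE 0.72) and that of Cd44 1.68 (SE 0.28). That library held 66.2 CPM of Gfap, 5.08 CPM of Serpina3n, 2.33 CPM of Ggta1, 6.93 CPM of Aspg, 4.67 CPM of Osmr and 3.71 CPM of Emp1. Each of these lies below every bulb library. Vim, at 126 CPM, stood above all 5 bulb libraries. Cd44, at 4.74 CPM, lay just below the left bulbs and above the right ones. Gbp2 had 3.36 CPM and Timp1 0.549 CPM, from 8 reads.

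Levels of different genes were compared per kilobase of merged exons. In the left bulbs Gfap came first with 133 ± 5.83 CPM per kb (SD, n = 2), followed by Serpina3n at 21.9 ± 0.691, Vim at 20.3 ± 2.53, with ranges that overlap, and Aspg at 8.70 ± 0.601. Ggta1, at 3.01 ± 0.485 CPM per kb, stood above Gbp2 at 2.74 ± 0.0268, with ranges that overlap. The right bulbs had Gfap at 60.5 ± 9.06 CPM per kb, then Vim at 16.9 ± 0.298, Serpina3n at 15.6 ± 1.64 and Aspg at 3.91 ± 1.01 (SD, n = 3 each). Vim and Serpina3n overlapped in the right bulbs, with 16.6 to 17.2 and 13.7 to 16.7 CPM per kb. Gbp2 (1.55 ± 0.223), Ggta1 (1.19 ± 0.350), Timp1 (1.12 ± 0.0658), Emp1 (1.04 ± 0.123) and Osmr (1.02 ± 0.0902) followed on this scale, and neighbours in this stretch did not differ beyond their spread. Cd44 came last, at 0.755 ± 0.0266 CPM per kb in the left bulbs and 0.221 ± 0.0715 in the right ones. With the longest transcript as the length, 5 of 10 ranks in the right bulbs stayed, and Osmr took rank 5 in place of rank 9.

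**Figure D2:**
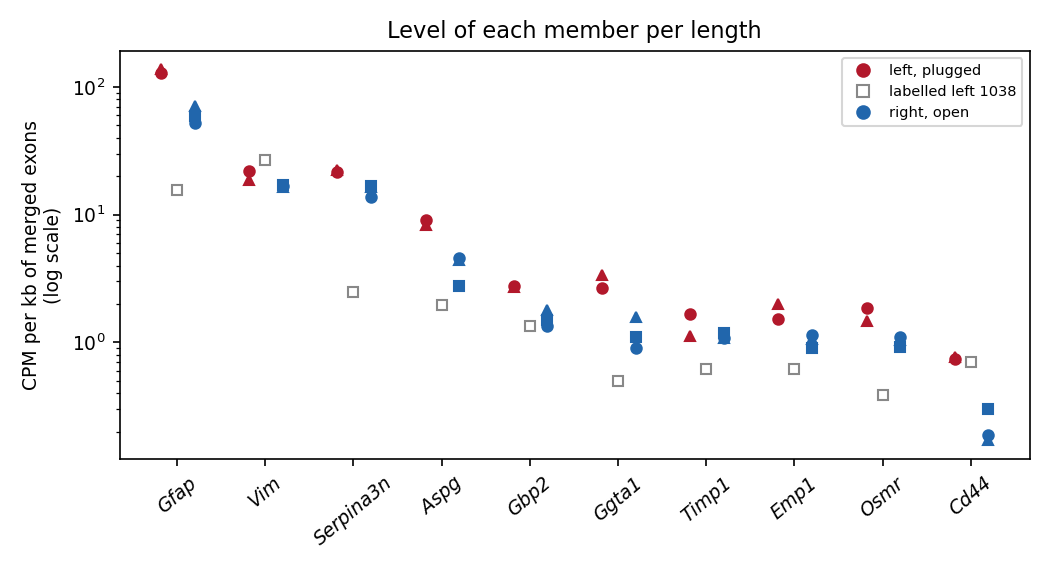
Level of each gene in CPM per kilobase of merged exons (vertical axis, log scale), ordered by the mean of the right bulbs, with 2 left bulbs in red, the library labelled left 1038 as a grey open square and 3 right bulbs in blue (circles, squares and triangles for mice 1037, 1038 and 1039). Gfap stands at 129 and 137 on the left and 52.5 to 70.3 on the right, and Cd44 is the lowest member in the right bulbs.

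Gfap made up 69.45% and 72.25% of all member reads in left 1037 and 1039, and 59.0%, 61.7% and 64.8% in right 1037, 1038 and 1039. The 10 members together held 782 and 800 CPM on the left and 376, 402 and 458 CPM on the right. Without Gfap the other 9 held 239 and 222 CPM on the left and 154, 154 and 161 CPM on the right, so both parts were higher in each left bulb. In bulk tissue, more cells of a type and more RNA per cell cannot be told apart.

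The rest of the commonly used panel of reactive astrocyte genes gave a mixed picture. It comprises genes shared by reactive astrocytes in general (pan-reactive), genes first seen after systemic endotoxin (A1) and genes first seen after ischaemia (A2), 26 in all beside the members, of which 24 had enough counts to be tested. Of these 3 rose and 2 fell, 19 did not pass, and their median log2 fold change was 0.23. Of all genes tested 3.16% were called higher and 6.46% lower. The log2 fold change was positive in 18 of the 24 and negative in 6. In 13 both left CPM lay above all right CPM and in 2 below, where 33.2% and 13.2% of all genes tested did so. Among the 9 A1 genes beside the members 3 rose and 0 fell (median 0.28). Psmb8, a subunit of the immunoproteasome, rose by 1.01 on the log2 scale, as are the changes below (SE 0.22, adjusted p = 0.0210), with 5.44 and 4.98 CPM on the left and 2.63, 2.25 and 2.46 CPM on the right. Serping1, the inhibitor of complement C1, rose by 0.52 (SE 0.12, adjusted p = 0.0298), and H2-D1, a class I histocompatibility gene, rose by 0.28 (SE 0.07, adjusted p = 0.0376). Psmb8 had left bulbs that did not overlap the right ones, yet its call ended without any single library (largest adjusted p 0.0994). That of Serping1 ended without left 1037, right 1037, right 1038 or right 1039 (largest adjusted p 0.206), with a value of 0.31 without left 1037, and that of H2-D1 in the fits lacking left 1039, right 1037 or right 1038 (largest adjusted p 0.155). H2-D1 belongs to a family of near-identical copies, so its reads are uncertain.

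Among the 9 tested A2 genes beside the members 0 rose and 2 fell (median 0.22). Of all genes tested 3.16% were called higher and 6.46% lower. Panel genes that are members are left out of these A1 and A2 counts, so the counts do not describe the whole classes. Ptgs2, the inducible cyclooxygenase, which neurons also express, fell by 1.20 (SE 0.24, adjusted p = 0.0142), with 4.73 and 3.19 CPM on the left and 10.6, 7.75 and 7.44 CPM on the right. S100a10, a partner of annexins, fell by 0.50 (SE 0.12, adjusted p = 0.0254), with 21.3 and 27.5 CPM on the left and 31.9, 34.3 and 31.9 CPM on the right. For both the groups did not overlap. The call of Ptgs2 ended without left 1039 or right 1037 (largest adjusted p 0.0674) and that of S100a10 without left 1037, right 1037, right 1038 or right 1039 (largest adjusted p 0.132), with -0.33 without left 1037. Of the 6 further pan-reactive genes edgeR, DESeq2 and limma-voom each called 0, with 2 at an unadjusted p under 0.05 in edgeR. Cxcl10, a chemokine, had 1.65 (SE 0.64, adjusted p = 0.146), Lcn2, the iron-scavenging lipocalin, had 0.73 (SE 0.43, adjusted p = 0.340), and Hspb1, a small heat shock protein, had 0.40 (SE 0.17, adjusted p = 0.184). Cxcl10 and Lcn2 lay at or under 1.39 CPM in every library, where reads are few.

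**Figure D3:**
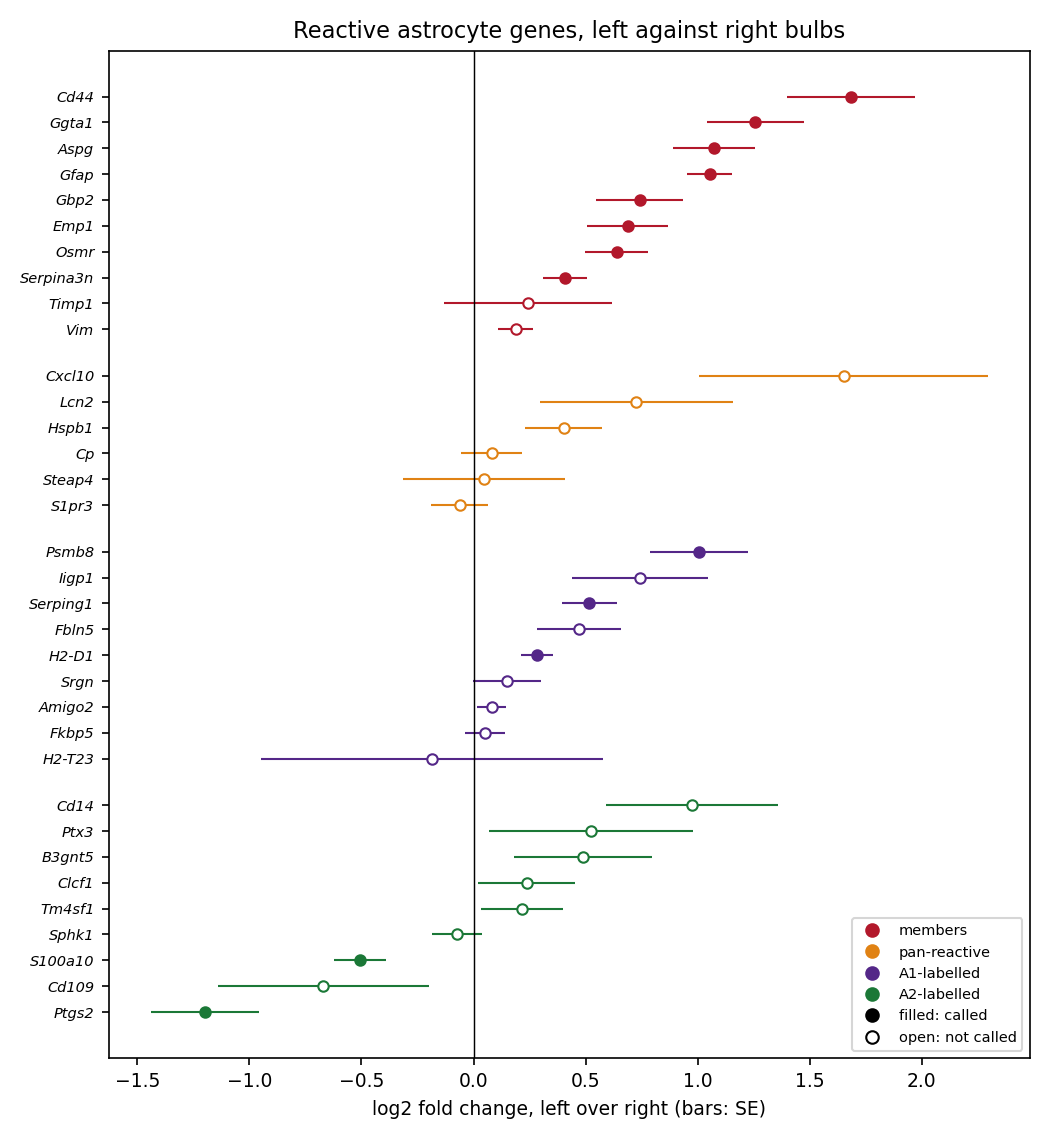
Log2 fold change, left over right (horizontal axis, bars are SE), in 2 left and 3 right bulbs for the 10 members and for the tested genes of the pan-reactive, A1 and A2 lists. Filled points were called by edgeR at an adjusted p under 0.05. All members lie to the right of 0, while Ptgs2 and S100a10 of the A2 list lie to the left. The members were chosen with this contrast in view, so their side and filled points are description only.

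Genes of the cytokine pathway that leads to reactivity were called about as often as all genes. Of 29 genes for ligands, receptors and Jak-Stat signalling, 22 were tested and 2 were called, where 9.62% of all genes were called, and their median log2 fold change was 0.16. Among the ligands 7 of 12, including Osm, Lif and Il6, had too few counts to be tested. Osm, the ligand of Osmr, had 0.259 and 0.266 CPM on the left and 0.449, 0.0662 and 0.0683 CPM on the right, at or near the limit of 3 counts. Of the 5 ligands tested edgeR, DESeq2 and limma-voom called 0, with 0 at an unadjusted p under 0.05. Tgfbr1, a receptor for transforming growth factor beta, rose by 0.39 (SE 0.08, adjusted p = 0.0192). Its call ended without left 1037, left 1039, right 1038 or right 1039 (largest adjusted p 0.0707). Jak1 fell by 0.23 (SE 0.05, adjusted p = 0.0298), a call that ended without any single library (largest adjusted p 0.110) and with scaling by total library size only (-0.14, adjusted p = 0.115). Stat3 had -0.10 (SE 0.07, adjusted p = 0.479), Il6st, the signalling partner of Osmr, had -0.09 (SE 0.07, adjusted p = 0.527), and Socs3, the feedback inhibitor induced by Stat3, had 0.35 (SE 0.18, adjusted p = 0.270). Socs1, a related inhibitor, had 1.01 (SE 0.47, adjusted p = 0.223), from 0.713 and 0.996 CPM on the left and 0.449, 0.397 and 0.341 CPM on the right.

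Spp1, which encodes osteopontin, a ligand of Cd44, fell by 0.65 (SE 0.11, adjusted p = 0.00731). It had 42.2 and 37.8 CPM on the left and 66.4, 51.4 and 60.4 CPM on the right, groups that did not overlap, and the call held without each library. Of the hyaluronan synthases Has1 and Has2 were too low to be tested, and Has3 had -0.08 (SE 0.37, adjusted p = 0.926). Of the 6 tested metalloproteinases and inhibitors beside Timp1, edgeR, DESeq2 and limma-voom called 0, where edgeR called 9.62% of all genes tested. In edgeR 1 of the 6 had an unadjusted p under 0.05. That was Timp4, an inhibitor known from astrocytes, with -0.40 (SE 0.14, adjusted p = 0.0996).

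Genes that astrocytes use in their resting state were split between the sides. Of 13 homeostatic astrocyte genes 3 rose and 2 fell, with a median log2 fold change of 0.01. Of all genes tested 3.16% were called higher and 6.46% lower. Aqp4, the water channel of astrocyte endfeet, rose by 0.30 (SE 0.06, adjusted p = 0.0101), with 267 and 251 CPM on the left and 197, 200 and 201 CPM on the right. Sox9, an astrocyte transcription factor, rose by 0.47 (SE 0.10, adjusted p = 0.0145), and Gjb6, the gap junction protein connexin of astrocytes, rose by 0.41 (SE 0.09, adjusted p = 0.0196). S100b, a calcium-binding protein that is also on the list of ensheathing glia, fell by 0.51 (SE 0.10, adjusted p = 0.0143), and Slc4a4, a bicarbonate transporter, fell by 0.34 (SE 0.08, adjusted p = 0.0296). The call of Aqp4 held without each library. Those of S100b and Sox9 ended without left 1039 or right 1037 (largest adjusted p 0.0734 and 0.0710), that of Gjb6 without left 1037 or right 1038 (largest adjusted p 0.110), and that of Slc4a4 without left 1039, right 1037 or right 1038 and with total library size only (largest adjusted p 0.127). Aldh1l1, a general astrocyte marker, had -0.23 (SE 0.09, adjusted p = 0.158), and Slc1a3, a glutamate transporter, had -0.02 (SE 0.07, adjusted p = 0.861).

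The 13 homeostatic genes summed to 7766 and 7080 CPM in left 1037 and 1039, and to 6851, 7207 and 7227 CPM in the right bulbs, ranges that overlap. Per 100 counts of these genes Gfap had 6.997 and 8.166 counts on the left and 3.23, 3.44 and 4.11 counts on the right. Per Aldh1l1 count it had 12.3 and 13.8 counts on the left and 5.18, 4.97 and 5.92 counts on the right. Both ratios were higher in each left bulb than in every right bulb. In the library labelled left 1038 the 13 genes summed to 8657 CPM, with 0.764 Gfap counts per 100 counts of them.

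**Figure D4:**
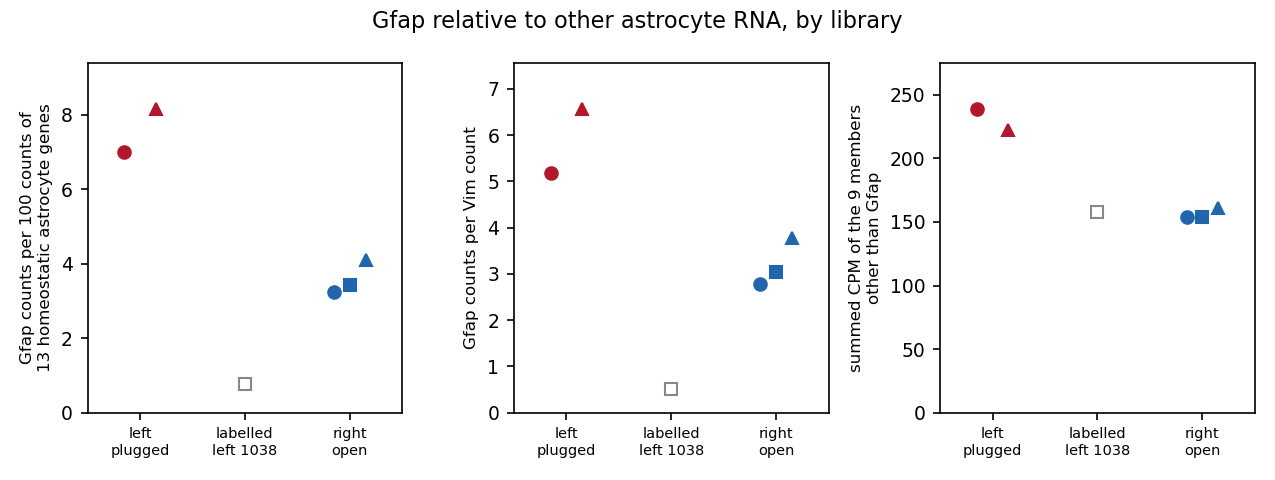
Gfap counts per 100 counts of 13 homeostatic astrocyte genes, Gfap counts per Vim count, and the summed CPM of the other 9 members (vertical axes, from 0), by library, with circles, squares and triangles for mice 1037, 1038 and 1039. In each panel both left bulbs in red lie above the 3 right bulbs in blue, and for the ratios the library labelled left 1038 (grey open square) lies below all of them.

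Of 14 markers of microglia, the immune cells of the brain, 4 rose, 0 fell and 10 did not pass (median log2 fold change 0.46). Of all genes tested 3.16% were called higher and 6.46% lower. The list summed to 410 to 424 CPM on the left and 302 to 326 CPM on the right. C1qc, C1qb and C1qa, the chains of the complement starter C1q, rose by 0.61, 0.56 and 0.45 (SE 0.11, adjusted p = 0.00775, 0.0156 and 0.0290), and Tyrobp, a signalling adaptor, rose by 0.59 (SE 0.14, adjusted p = 0.0336). C1qc was called without each library, while the calls of C1qb (without left 1037 or right 1038), C1qa (without left 1037, right 1038 or right 1039) and Tyrobp (without any single library, and in the fit blocked by mouse, adjusted p = 0.0525) ended (largest adjusted p 0.142). In 13 of 14 genes, Cd68 being the exception, both left CPM lay above all right CPM, where 33.2% of all genes tested did so. Cd44 is known from immune cells as well as astrocytes. The part of microglia in the values of the members was not tested.

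Of 8 markers of bulb neurons 1 rose beside the fall of Th, where 9.62% of all genes tested were called. Tbx21, a transcription factor of mitral and tufted cells, rose by 0.65 (SE 0.11, adjusted p = 0.00580), with 73.6 and 67.5 CPM on the left and 36.7, 42.5 and 48.6 CPM on the right. Its groups did not overlap, and the call held without each library. Ensheathing glia of the olfactory nerve had a median log2 fold change of -0.38 over 7 genes, of which S100b fell, and summed to 1224 to 1534 CPM on the left and 1561 to 1695 CPM on the right. Oligodendrocyte lineage genes had -0.16 over 8 genes, with Olig1 and Pdgfra, genes of precursors, lower by 0.38 and 0.36 (adjusted p = 0.0169 and 0.0185), calls that ended without left 1039 or right 1039 and also, for Olig1, right 1037 and, for Pdgfra, right 1038 (largest adjusted p 0.105). Endothelial and mural genes had -0.16 over 8 genes, of which Kdr, a receptor for vascular growth factor, fell by 0.58 (adjusted p = 0.0237), a call that ended in the fits lacking left 1039, right 1038 or right 1039 (largest adjusted p 0.103). These lists summed to 1950 to 2305 and 310 to 329 CPM on the left and to 1897 to 2383 and 306 to 357 CPM on the right. The 5 meningeal fibroblast genes summed to 125 to 204 CPM on the left and 137 to 274 CPM on the right, with the highest value in right 1038, where Cd44 was also the highest of the right bulbs. In left 1037 and 1039 these genes summed to 204 and 125 CPM, with Cd44 at 4.99 and 5.24 CPM, so Cd44 was not the higher where their sum was. Without right 1038 the log2 fold change of Cd44 was 1.98. The 4 T cell genes were too low to be tested, with Cd3e at 0.0648 and 0.0664 CPM on the left and 0, 0.132 and 0 CPM on the right, and 2 haemoglobin genes were not called. The part of these cells in the values of the members was not tested.

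**Figure D5:**
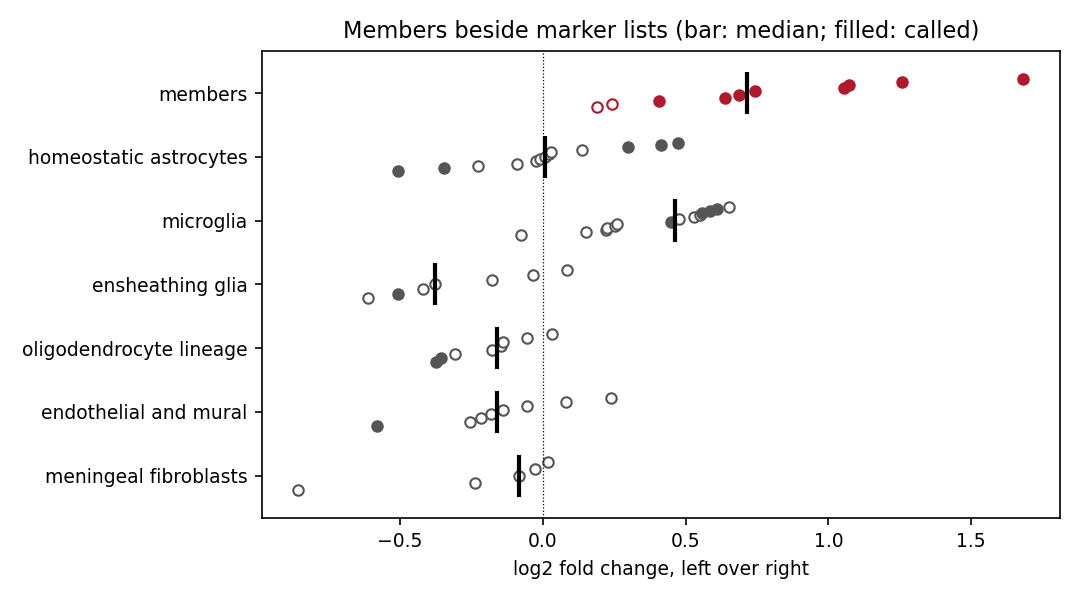
Log2 fold change, left over right (horizontal axis), of each tested gene of the 10 members (red) and of 6 marker lists (grey), in 2 left and 3 right bulbs; bars are medians and filled points were called by edgeR at an adjusted p under 0.05. The median is 0.71 for the members, 0.46 for microglia, 0.01 for homeostatic astrocyte genes and below 0 for the other lists. The members were chosen with this contrast in view, so their median and filled points are description only and are not comparable with the other lists.

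The genes whose pattern over the 5 bulb libraries was most like that of Gfap were found by the root mean square difference of centred log2 CPM among 11819 genes with a mean of at least 5 CPM. The nearest were Trim47 (0.060), Celsr1 (0.074), BC030499 (0.078), Padi2 (0.079), Kcnh6 (0.086) and Cgn (0.100 on the log2 scale). Trim47 is a member of the tripartite motif family, Celsr1 an adhesion receptor of planar cell polarity, Padi2 an enzyme that converts arginine to citrulline in proteins, Kcnh6 a potassium channel and Cgn the tight junction protein cingulin. Padi2 had 43.1 and 49.5 CPM on the left and 16.0, 19.7 and 24.5 CPM on the right, and Kcnh6 had 46.7 and 41.4 CPM on the left and 17.9, 19.5 and 22.9 CPM on the right. Since likeness to Gfap chose these genes, their left-right difference is fixed by that choice. Among the members with a mean of at least 5 CPM, Gbp2 and Ggta1 were the nearest to Gfap (ranks 23 and 26, at 0.166 and 0.173), while Vim was the farthest (rank 2229, at 0.467). The right means of Trim47, BC030499, Cgn and Gbp2 (3.25, 4.51, 4.86 and 3.89 CPM) were under that limit, which these genes passed through their left libraries. The distances take in the left-right difference on which the members were chosen, so nothing is read from the ranks of members.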

How the data were processed

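Polyadenylated RNA of 6 libraries from 3 mice was measured. The deposited table holds whole-number counts per gene for 22095 genes, not normalized, and RPKM values made by the authors. The build is GRCm38, and the submitters' processing notes list HTSeq 0.6.1p2, TopHat2 and cutadapt 1.2.1, as well as DESeq 1.18.0. The sources used here do not say whether strand was used. The deposited RPKM were not used, because the length in the table lies within 1 base of the genomic span for 78.34% of annotated genes, introns included.

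Counts were tested with edgeR 4.0.16 (quasi-likelihood test, TMM scaling, its default filter on low counts, side as the only term), with Benjamini-Hochberg adjustment over all 14412 genes tested and a threshold of 0.05. SE are the log2 fold change over the root of the test's F. CPM as printed, with their ratios and overlaps, are counts relative to the library total without TMM scaling. The TMM factors were 1.03 (left 1037), 1.04 (left 1039), 0.973 (right 1037), 0.981 (right 1038) and 0.985 (right 1039). Intervals are exact Poisson (95%). Alternatives were DESeq2 1.42.0, limma-voom (limma 3.58.1), other scalings and filters, the mouse as a block, all 6 libraries, and each library left out in turn. The edgeR fit was tested on simulated data of this design, where the share of false calls came out above the nominal threshold. Per the labels a number marks a mouse, which pairs its bulbs, and their deviations from the group means correlated at 0.0806, 0.0461 and 0.135 over 6 libraries, and at 0.278 over the 4 bulb libraries of mice 1037 and 1039. The p-values rest on 2 left and 3 right bulbs.

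The members and all gene lists were chosen with earlier results of these data known. Genes named are the members, called genes of the other reactive lists, at most 4 called genes of each other list (the 2 with the smallest p where none is called), the 6 genes nearest to Gfap, and genes that overlap or resemble a member. Slc4a4, Stat3, Il6st, Socs3, Aldh1l1, Slc1a3, Socs1, Has3, Osm, Cd3e, Lcn2 and genes named only as exceptions fall outside this rule and were chosen after their values were seen. Promoters came from RefSeq tables (GRCm38.p6), exon lengths from GENCODE on GRCm38.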

Additional observations from a re-analysis of the deposited data

Results flagged for a closer look

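In the library labelled left 1038, where the markers of bulb neurons were far lower than in the bulbs, 2 members stood above the counting interval of the highest right bulb. Vim had 126 CPM there (95% Poisson interval 121 to 132), against 81.5 CPM in right 1038. Cd44 had 4.74 CPM there (95% Poisson interval 3.68 to 5.99), against 2.05 CPM in right 1038. This library was outside the groups compared, other than in the fits with all 6 libraries, and its difference from the bulbs was not tested.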

How the results depend on the processing

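With all 6 libraries, the counts of all genes called (1387), of members (8), of other panel genes (5), of homeostatic astrocyte genes (5), of cytokine pathway genes (2) and of microglia genes (4) each became 0, with and without the replicate block. That fit adds to the left group a library with 119 CPM of bulb neuron markers, against at least 2618 CPM in the others. Leaving out 1 bulb library at a time gave 660 to 1124 genes in the whole table, 5 to 6 members, 0 to 2 other panel genes, 2 to 5 homeostatic genes, 0 to 1 cytokine pathway genes and 1 to 3 microglia genes, in fits with fewer samples. Scaling by total library size only gave 4 cytokine pathway genes, all higher, and moved the median log2 fold change of all genes to 0.087, against 0.005; the cause was not tested. The order of levels kept 5 of 10 ranks with the longest transcript as length. Among called genes, log2 fold changes that turned with all 6 libraries were Serpina3n (-0.088), Tgfbr1 (-0.011) and S100b (0.22). With all 6 libraries and the replicate block they were Serpina3n (-0.49), Osmr (-0.0062), Tgfbr1 (-0.22), S100b (0.013), C1qc (-0.034), C1qb (-0.11), C1qa (-0.20), Tbx21 (-0.82) and Kcnh6 (-0.26). Among genes that were not called, Timp1 (-0.03 and -0.10 without and with the block), Timp4 (1.91 and 0.72), Tgfb2 (-0.22 and -0.42) and Tgfb1 (-0.13 and -0.24) also changed sign in these fits. In the 5 bulb libraries the replicate block called 1553 genes and 6 members; among the genes named it changed the calls of Gbp2, Emp1, Tyrobp, Nes, Hopx and Gdf10 and no other.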

Other observations

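Of the 6 genes nearest to Gfap in pattern, 3 (Trim47, BC030499 and Kcnh6) lie on chromosome 11 with Gfap, which holds 7.94% of the 11806 located genes compared. This was noticed after the genes were known and was not tested.

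Gdf10 and Hopx, known from Bergmann glia of the cerebellum, were not called in the bulbs, with log2 fold changes of 0.62 (SE 0.20, adjusted p = 0.0890) and 0.57 (SE 0.18, adjusted p = 0.0856) by edgeR. A blocked edgeR fit, by mouse, called both (adjusted p = 0.0397 for Gdf10 and 0.0487 for Hopx). In the library labelled left 1038 they stood at 194 and 63.5 CPM.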
